A study of Homo sapiens with 10 samples.

Results

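The genes followed here are 10 scavenger and TAM phagocytic receptor genes of human microglia, chosen by name with earlier results of these data known. These comprise the scavenger receptors OLR1, CD36, MSR1, MARCO and SCARB1, the receptor tyrosine kinases MERTK and AXL, the TAM ligands GAS6 and PROS1, and CD14. They are 10 of 36591 human genes in the count table, and all 10 were among the 15455 genes with enough counts to be tested. The table holds bulk RNA sequencing of human microglia (hMG) made from the embryonic stem cell line H9, grafted into mice at postnatal day 4 and sorted as CD11b+, human CD45+ cells when the mice were 6 months old. All hosts lacked Rag2 (and so mature T and B cells, while NK cells remained), carried human CSF1 in place of the mouse gene, and received the CSF1R inhibitor BLZ945 before grafting to reduce their own microglia. In 5 AppHu mice, which the sample labels call AppKI, the App gene encodes the human amyloid-β sequence without pathological mutations. In 5 AppSAA mice it also carries the Swedish, Arctic and Austrian mutations, and amyloid plaques form. Each library is 1 mouse, both sexes were used in each group without a record per library, and all grafts came from 1 cell line, so the p-values below measure the spread between mice and not between human donors.

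Scavenger receptors bind modified lipoproteins, lipids, bacterial products and amyloid and carry them into the cell. The TAM kinases recognise dying cells indirectly, through ligands that bind phosphatidylserine exposed on the surface of a dying cell. GAS6 bridges it to MERTK or AXL on the phagocyte and PROS1 to MERTK, and the activated receptor also dampens inflammatory signalling. CD14 presents lipopolysaccharide to TLR4 and takes part in the uptake of other ligands. Microglia, the resident phagocytes of the brain, use these routes to clear cell debris, lipids and protein deposits.

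The upstream sequences of the TAM kinases and of CD14 are shown because these genes were among the most abundant of the 10 and differ in the letters that lie before their starts. Each is the 250 bases before a RefSeq start site on GRCh38.p14, read 5′ to 3′ along the gene, with matches to the searched letters in capitals. MERTK (chr2:111898357-111898606, forward strand), AXL (chr19:41218973-41219222, forward strand, the first of its 2 listed starts) and CD14 (chr5:140633176-140633425, reverse strand) read:
MERTK: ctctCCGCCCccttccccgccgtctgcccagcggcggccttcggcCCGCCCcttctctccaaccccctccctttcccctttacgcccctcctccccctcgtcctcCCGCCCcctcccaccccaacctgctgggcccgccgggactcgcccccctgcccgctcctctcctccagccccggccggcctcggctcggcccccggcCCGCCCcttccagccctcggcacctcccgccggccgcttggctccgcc
AXL: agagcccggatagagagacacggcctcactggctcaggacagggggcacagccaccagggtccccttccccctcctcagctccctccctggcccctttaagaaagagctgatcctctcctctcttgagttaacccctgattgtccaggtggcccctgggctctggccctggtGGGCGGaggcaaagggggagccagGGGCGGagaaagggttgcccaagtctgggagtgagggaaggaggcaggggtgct
CD14: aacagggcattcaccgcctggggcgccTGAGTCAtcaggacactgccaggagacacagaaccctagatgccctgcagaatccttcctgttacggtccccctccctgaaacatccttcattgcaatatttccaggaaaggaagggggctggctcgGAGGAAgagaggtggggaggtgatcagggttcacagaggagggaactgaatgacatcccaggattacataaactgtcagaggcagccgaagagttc
The capitals in MERTK and AXL mark the SP1 box GGGCGG or its reverse complement, which MERTK held 4 times and AXL 2 times. Among all 35116 windows of this length 42.6% held it at least once. The CD14 window held no SP1 box but the AP-1 site TGANTCA once, found in 6.57% of windows, and the PU.1 core GAGGAA once, found in 23.6%. None of the 3 windows held TGCTGA, the core letters of a MAF site (14.0% of windows), or AGGTCA, the core letters of a nuclear receptor site (12.1%). Both strands were searched for each motif; matches of different motifs could overlap, and in these windows none did. The G and C content was 78.8% for MERTK, 64.4% for AXL and 54.8% for CD14, against a median of 58.0% over all windows. The windows are a description of sequence, and 7 of the 10 genes had one. OLR1, MSR1 and SCARB1 had none, so no sequence of OLR1 could be shown.

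The libraries held 25040739 to 39641854 counts, of which 2.12 to 4.97% fell on mouse genes. Human totals were 28386080 to 38325734 in AppHu and 24165871 to 30556909 in AppSAA (two-sided exact permutation test, p = 0.0714). Levels are given below as CPM, human counts scaled to a common total after TMM normalisation, as mean ± SD over 5 mice. The 12 microglia markers fixed for the check of identity, among them P2RY12, TMEM119 and SALL1, were all above 10 CPM in the libraries, and their summed level was 42900 to 48600 CPM in AppHu and 36700 to 46800 CPM in AppSAA. Undifferentiated stem cell markers summed to at most 0.59 CPM. In such sorted bulk samples, fewer cells of a type and less RNA per cell cannot be told apart.

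Of the 10 genes, OLR1 alone was separated between the groups. In AppSAA hMG OLR1 was 1.43-fold higher than in AppHu (95% interval 1.24 to 1.64), while CD36, AXL, CD14 and MERTK had lower means and 5 genes had intervals that include no difference. No gene of the 10 passed an adjusted p of 0.05 in edgeR (quasi-likelihood fit, Benjamini-Hochberg over all genes tested), where 0.0776% of genes passed. In DESeq2, the tool of the study's methods, OLR1 passed and the other 9 did not, where 0.990% of genes tested were called higher in AppSAA. An unadjusted p under 0.05 in edgeR was found for 5 of the 10, beside 9.80% of all genes tested: 1 higher (OLR1, background 5.99%) and 4 lower (MERTK, AXL, CD36 and CD14, background 3.80%). As the 10 genes were chosen with earlier results of these data known, these counts are a description. The log2 fold change was below 0 in 7 of the 10 and above 0 in 3, with a median of -0.13 against 0.0018 over all genes tested.

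**Figure D1:**
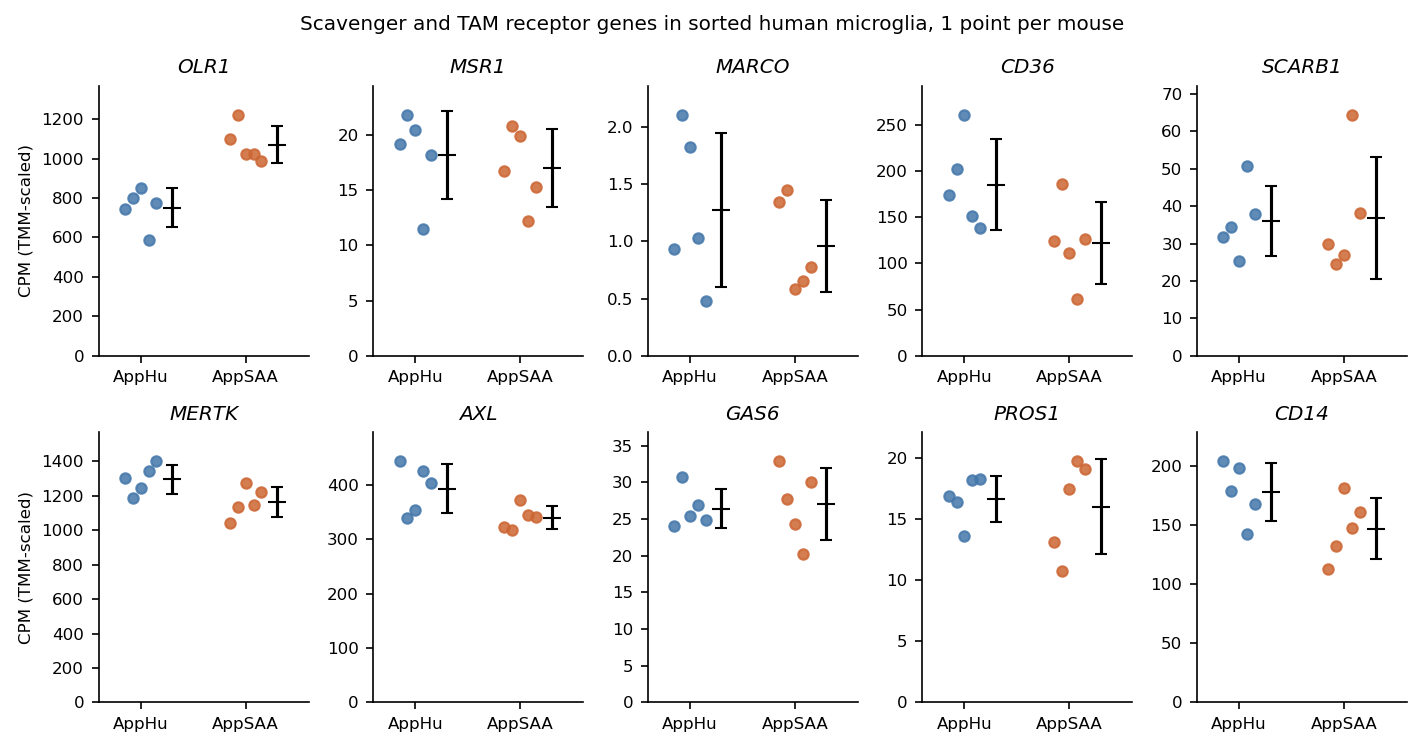
CPM after TMM scaling (vertical axes, starting at 0) of each gene in the 5 AppHu (blue) and 5 AppSAA (orange) mice, with 1 point per mouse and the mean ± SD in black. The AppSAA points of OLR1 (985.7 to 1221 CPM) all lie above its AppHu points (586.3 to 849.8 CPM), and in the other 9 panels the groups overlap.

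OLR1 (ENSG00000173391) encodes LOX-1, a lectin-like receptor for oxidised low-density lipoprotein. Its GENCODE 44 position on GRCh38 is chr12:10158301-10172138, reverse strand. Its level in the AppHu mice numbered 3, 4, 6, 7 and 8 was 743.6, 799.5, 849.8, 586.3 and 772.3 CPM, and in the AppSAA mice numbered 4, 5, 6, 7 and 8 it was 1098, 1221, 1022, 1024 and 985.7 CPM. Every AppSAA mouse was above every AppHu mouse, a separation in this direction that 1.58% of all genes tested showed. The log2 fold change was 0.51 (SE 0.093), with an adjusted p of 0.0566 in edgeR and 0.00068 in DESeq2. An exact two-sided permutation test on log2 CPM gave p = 0.00794, the smallest that 252 arrangements of 5 against 5 mice allow. By p, OLR1 ranked 32 of all genes tested in edgeR and 43 in DESeq2, and 7.86% of genes had a log2 fold change at least as large in size. Its read support was high, at 19445 to 32169 counts per library. With each mouse left out in turn the log2 fold change stayed between 0.44 and 0.56 in edgeR.

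TMEM52B, a membrane protein gene on the opposite strand whose span overlaps that of OLR1 without a shared exon base, was also higher in AppSAA. Its level was 108.2, 110.4, 119.2, 99.1 and 116.4 CPM in AppHu and 129.1, 143.6, 142.9, 140.4 and 136.3 CPM in AppSAA, in the order of mice given above. These groups did not overlap either, and the log2 fold change was 0.32 (SE 0.063; adjusted p = 0.0777 in edgeR and 0.0015 in DESeq2). The kit does not mark strand, so reads from introns or read-through transcripts of the neighbouring genes cannot be assigned to a strand, and their part in either value was not tested. SLC1A3, a glutamate transporter gene listed among astrocyte markers, also differed, at 332.9 to 456.4 CPM in AppHu and 518.5 to 575.9 CPM in AppSAA (adjusted p = 0.0548 in edgeR and 0.00018 in DESeq2), while the astrocyte markers AQP4 and ALDH1L1 had no count in any library and GFAP at most 0.17 CPM.

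CD36, which takes up long-chain fatty acids and oxidised lipoprotein, had the widest difference downward. Its position is chr7:80369575-80679277, forward strand. In AppHu its level was 174.2, 202.6, 260.6, 151.0 and 137.9 CPM, and in AppSAA 124.8, 186.0, 111.8, 61.6 and 126.6 CPM. Of the 5 AppSAA mice 4 were below all AppHu mice, and the exception was replicate 5. The fold was 0.659 (95% interval 0.458 to 0.949; log2 fold change -0.60, SE 0.24), with an adjusted p of 0.431 in edgeR and 0.215 in DESeq2 and an exact permutation p of 0.0476. As replicate 5 was the only AppSAA mouse inside the AppHu range, its removal separates the groups by construction. Without it the log2 fold change was -0.81 (adjusted p = 0.162 in edgeR). Without AppSAA replicate 7, the mouse with the lowest level, it was -0.43.

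MSR1, MARCO and SCARB1 did not separate the groups. MSR1, a class A receptor for acetylated lipoprotein and amyloid (ENSG00000038945), was at 18.2 ± 3.99 CPM in AppHu and 17.0 ± 3.50 CPM in AppSAA, a fold of 0.932 with an interval of 0.711 to 1.22. MARCO, a class A receptor with a collagenous stalk known from tissue macrophages, was the least abundant of the 10, at 14 to 81 counts in AppHu and 14 to 39 counts in AppSAA. Its fold of 0.751 has an interval of 0.407 to 1.39, and that interval includes the fold seen for CD36. SCARB1, the receptor for high-density lipoprotein, was at 36.1 ± 9.35 CPM in AppHu and 36.8 ± 16.2 CPM in AppSAA (fold 1.02, interval 0.700 to 1.49). It was highest in the mouse numbered 7 of each group, at 50.7 CPM in AppHu and 64.3 CPM in AppSAA, the same mice in which MSR1 was lowest, at 11.5 and 12.2 CPM. Without AppSAA replicate 7 the log2 fold change of SCARB1 went from 0.031 to -0.27 (adjusted p = 0.706 in edgeR). In the annotation SCARB1 shares 1120 exon bases with a long non-coding RNA on the opposite strand, and reads of these stretches cannot be told apart.

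**Figure D2:**
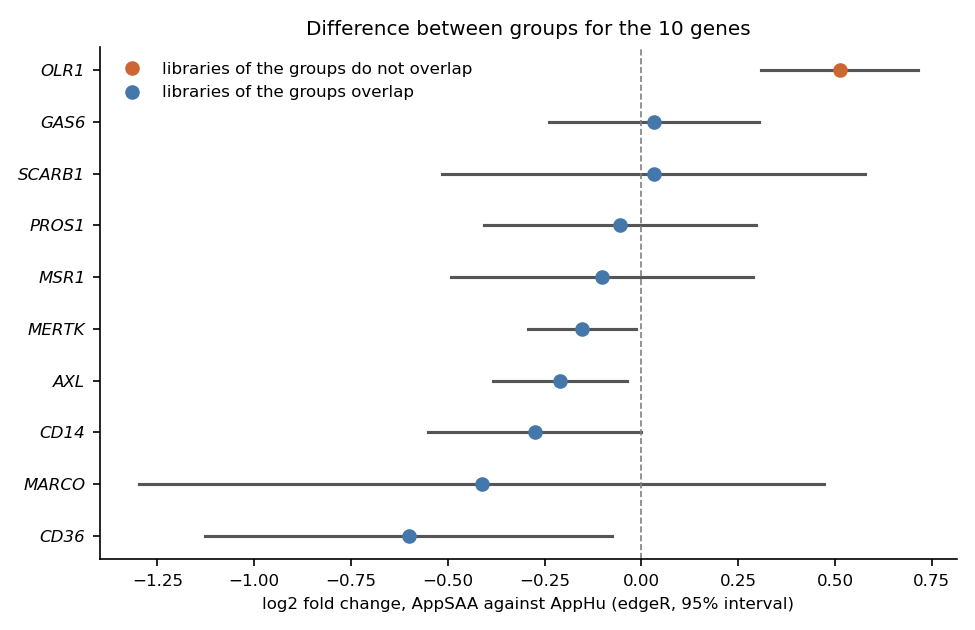
Log2 fold change of AppSAA against AppHu (horizontal axis) for each gene in edgeR, with its 95% interval as a line, genes ordered by value. OLR1, at 0.51, lies furthest to the right with an interval of 0.31 to 0.71, and CD36, at -0.60, lies furthest to the left with an interval of -1.13 to -0.075.

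Both TAM kinases had slightly lower means in AppSAA. MERTK, the kinase that mediates uptake of apoptotic cells by macrophages, is at chr2:111898607-112029561 (forward strand). Its level was 1301, 1189, 1243, 1347 and 1400 CPM in AppHu and 1045, 1136, 1274, 1149 and 1221 CPM in AppSAA. The groups overlapped, with 3 of 5 AppSAA mice below all AppHu mice. The fold was 0.899 (95% interval 0.817 to 0.990; log2 fold change -0.15, SE 0.064), with an adjusted p of 0.455 in edgeR and 0.397 in DESeq2 and an exact permutation p of 0.0476.

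AXL, a receptor for GAS6 that is known to be induced by interferon and inflammatory stimuli in macrophages, is at chr19:41219223-41261766 (forward strand). It was at 443.1, 339.9, 353.5, 426.1 and 402.9 CPM in AppHu and at 323.0, 317.6, 371.4, 345.5 and 341.2 CPM in AppSAA. Here 2 AppSAA mice were below all AppHu mice and the others lay inside the AppHu range. The fold was 0.864 (95% interval 0.767 to 0.974; log2 fold change -0.21, SE 0.080; adjusted p = 0.388 in edgeR and 0.294 in DESeq2; exact permutation p = 0.0556). TYRO3, the remaining TAM kinase, had 2 to 18 counts per library and was not tested.

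The TAM ligands were low and did not separate the groups. GAS6 was at 26.4 ± 2.67 CPM in AppHu and 27.0 ± 4.93 CPM in AppSAA (fold 1.02, interval 0.847 to 1.24). It shares 421 exon bases with GAS6-AS1 on the opposite strand, a gene with 641 to 1300 counts per library, close to the 579 to 1187 counts of GAS6 itself. PROS1, the gene of protein S, was at 16.7 ± 1.90 CPM in AppHu and 16.0 ± 3.92 CPM in AppSAA (fold 0.962, interval 0.754 to 1.23). In these libraries the mouse gene Pros1 made up 23.2 to 57.7% of the counts of both species for this gene, against 1.31 to 16.7% for Gas6, 0.821 to 3.17% for Axl and 0.386 to 1.19% for Mertk. Mouse Olr1 had at most 2 counts in a library, or 0.00622% of the counts of both species, and mouse Marco had none. The intervals of GAS6 and PROS1 include the fold seen for AXL, 0.864.

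CD14 (chr5:140631728-140633700, reverse strand) was at 203.9, 178.7, 198.2, 142.3 and 167.6 CPM in AppHu and at 113.0, 132.7, 181.4, 147.7 and 160.9 CPM in AppSAA. Of the AppSAA mice 2 were below all AppHu mice, and the others overlapped them. The fold was 0.826 (95% interval 0.683 to 0.999; log2 fold change -0.28, SE 0.13), with an adjusted p of 0.505 in edgeR and 0.418 in DESeq2 and an exact permutation p of 0.111. The RefSeq start whose upstream window is printed above lies inside the GENCODE span of the gene.

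The lower means of MERTK, AXL, CD36 and CD14 stood beside other values that moved the same way. Of the 12 microglia markers 11 had a lower mean in AppSAA, and of 8 markers of CNS-associated macrophages, the CD11b+ and CD45+ cells of the meninges and perivascular spaces that the sort would keep, 7 had one. Of all genes tested 50.5% had a higher mean. No marker of either list was called in edgeR, and the largest fall among the microglia markers was a log2 fold change of -0.17 (C1QA). The summed level of the latter list was 4510 to 5120 CPM in AppHu and 3810 to 4760 CPM in AppSAA. Its gene MRC1 was at 1129 to 1328 CPM in AppHu and 700.5 to 1115 CPM in AppSAA, without overlap, and LYVE1 at 397.0 to 591.4 and 249.9 to 449.2 CPM. The log2 fold change was smaller for FOLR2 (-0.12) and STAB1 (-0.12), and above 0 for SIGLEC1 (0.23). The part of these cells in the lower means was not tested. The 8 monocyte markers summed to 14.1 to 18.7 CPM in AppHu and 16.5 to 36.0 CPM in AppSAA. Of these, S100A12 and FCN1 had no count in any library, S100A8 was at 0.18 to 0.75 CPM in AppHu and 0.59 to 15.7 CPM in AppSAA, S100A9 reached 0.41 and 5.96 CPM, and LYZ was at 12.2 to 15.4 and 12.7 to 24.6 CPM. The part of monocytes in the values of the 10 genes was not tested. With the share of mouse counts as a covariate in edgeR, the log2 fold change was -0.082 for MERTK, -0.20 for AXL, -0.57 for CD36, -0.14 for CD14 and 0.55 for OLR1. With the library total as the covariate instead, it was -0.23 for MERTK, -0.35 for AXL, -0.55 for CD36, -0.34 for CD14 and 0.53 for OLR1.

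Per length of exon, MERTK and OLR1 were the most abundant of the 10 in both groups. In AppHu the order was MERTK at 313.5 CPM per kb, OLR1 at 245.4, CD14 at 108.1, AXL at 76.6, CD36 at 17.0, GAS6 at 4.39, PROS1 at 3.17, SCARB1 at 2.42, MSR1 at 2.33 and MARCO at 0.62 CPM per kb. Neighbours in this order had ranges that did not overlap, except PROS1 with SCARB1 and SCARB1 with MSR1. In AppSAA the order was the same save for its head, where OLR1 at 350.1 ± 30.7 CPM per kb was above MERTK at 281.8 ± 21.1, again without overlap of the ranges. In AppSAA the ranges of CD14 and AXL, of GAS6 and PROS1, of PROS1 and SCARB1, and of SCARB1 and MSR1 overlapped. With the longest transcript in place of merged exons, AppHu levels moved by over 1.5 times for CD36 (29.98 CPM per kb), GAS6 (9.98), PROS1 (4.86), SCARB1 (6.52) and MSR1 (5.04), and ranks 7, 8 and 9 went to SCARB1, MSR1 and PROS1. The ratio of OLR1 to MERTK counts, chosen after the values were seen and given without a test, was 0.435 to 0.684 in AppHu and 0.802 to 1.08 in AppSAA. The ratio of MERTK to AXL counts was 2.94 to 3.52 in AppHu and 3.24 to 3.58 in AppSAA.

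**Figure D3:**
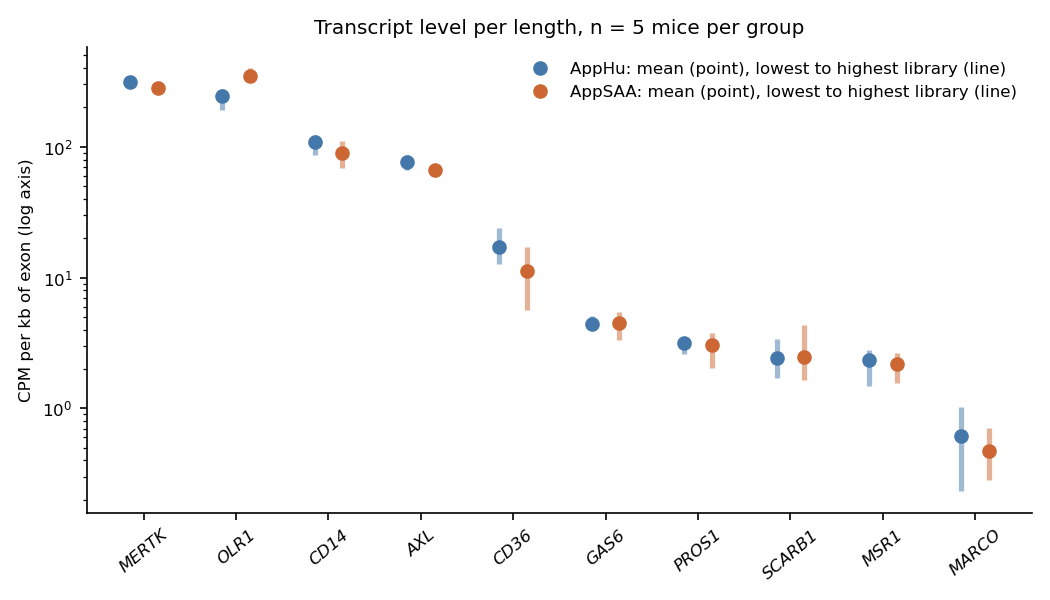
Level of each gene per kb of merged exons (log vertical axis, CPM per kb) in AppHu (blue) and AppSAA (orange), with the mean as a point and the lowest to highest of 5 mice as a line. Per kb, MERTK (313.5) stands above OLR1 (245.4) in AppHu, the order of this pair is turned in AppSAA (281.8 and 350.1), and MARCO is lowest in both groups.

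Spread between mice differed widely among the genes. In AppHu the coefficient of variation was lowest for MERTK (6.43%) and highest for MARCO (52.8%). In AppSAA it was lowest for AXL (6.25%, with MERTK at 7.47%) and highest for SCARB1 (44.04%, with MARCO at 41.8%). CD36 ranged 4.23-fold and OLR1 2.08-fold over all 10 libraries.

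After the mean of each group was taken out, the 45 pairs of genes were compared over the 10 libraries, which share the CPM total as a denominator. None passed an adjusted p of 0.05 over the 45 pairs (permutation within groups, 100000 permutations), and 14 had an unadjusted p under 0.05. MERTK and AXL had an r of 0.72 (rho = 0.73, permutation p = 0.0245, adjusted 0.113), which was 0.71 without the 2 farthest mice. MSR1 and OLR1 had an r of 0.82 (rho = 0.73, permutation p = 0.0185, adjusted 0.104), which was 0.62 without the 2 farthest mice. The strongest opposite pair was MSR1 and SCARB1 (r = -0.88, rho = -0.81, permutation p = 0.00132, adjusted 0.0553), with an r of -0.68 without the 2 farthest mice. MERTK and MARCO had an r of -0.84 (rho = -0.81, permutation p = 0.00457, adjusted 0.0553) and of -0.86 without them. The same adjusted permutation p of 0.0553 was found for CD36 and SCARB1 (r = -0.86), PROS1 and CD36 (-0.81) and PROS1 and OLR1 (-0.69). Without the 2 farthest mice r was -0.64, -0.57 and -0.42 for these pairs, in that order. Among all other human genes tested, the levels most like MERTK over the 10 libraries, with group means removed, were those of ID2 (r = 0.97), AC254633.1 (0.95) and FAM8A1 (0.94). For OLR1 they were ALDH1A2 (0.93), TNPO1 (0.93) and OGDH (0.92), and for AXL they were SETMAR (0.95), ZNF624 (0.94) and NAGS (0.92). These were picked as the highest of all genes and carry no test. Of them, ALDH1A2 (0.574 CPM), NAGS (0.499 CPM) and AC254633.1 (0.962 CPM) had low mean levels.

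**Figure D4:**
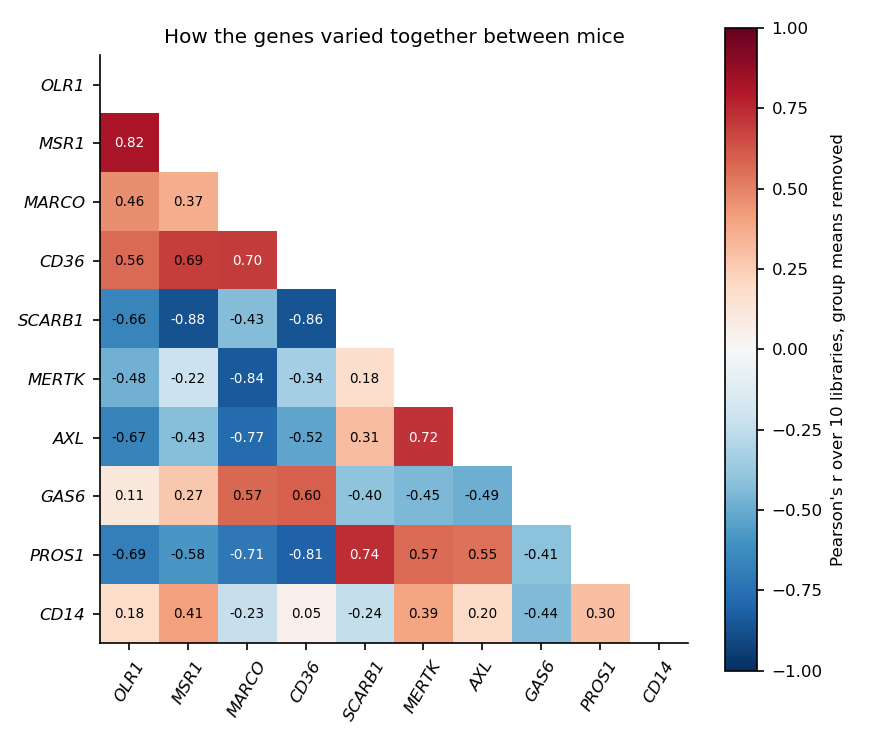
Pearson's r of log2 CPM for each of the 45 pairs over 10 mice after removal of group means (colour and printed value, red positive and blue negative). MERTK and AXL (0.72) and MSR1 and OLR1 (0.82) are positive, and MSR1 and SCARB1 (-0.88) is the lowest value; none passed the adjusted threshold.

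Genes that work with these receptors were read from 7 lists, 116 different genes tested in all. None was called in edgeR with Benjamini-Hochberg adjustment, and 5 passed in DESeq2, where 1.39% of all genes tested did. Among 18 other scavenger receptors tested, 9 had a higher and 9 a lower mean in AppSAA (median log2 fold change 0.011). The mannose receptor MRC1 was the 1 gene of this list to pass in DESeq2, at 1235 ± 87.9 CPM in AppHu and 919.1 ± 171 CPM in AppSAA (log2 fold change -0.43, SE 0.11; adjusted p = 0.185 in edgeR and 0.0364 in DESeq2). SORL1, a sorting receptor of the amyloid precursor protein, was at 1195 ± 58.2 and 1358 ± 82.5 CPM (log2 fold change 0.19; adjusted p = 0.252 in edgeR and 0.171 in DESeq2). CD163L1, a scavenger receptor with cysteine-rich domains, had a log2 fold change of -0.81 (SE 0.37, adjusted p = 0.504 in edgeR).

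In the list of lipid handling downstream of uptake, 11 of 14 genes tested had a higher mean in AppSAA (median log2 fold change 0.10), as did 50.5% of all genes tested, and 3 passed in DESeq2. FABP5, a fatty acid binding protein, was at 2.63 ± 0.592 CPM in AppHu and 4.89 ± 0.849 CPM in AppSAA (log2 fold change 0.90; adjusted p = 0.101 in edgeR and 0.0021 in DESeq2). APOE, the main lipoprotein carrier of the brain, was at 37.7 ± 4.10 and 48.0 ± 2.72 CPM (log2 fold change 0.35; adjusted p = 0.147 in edgeR and 0.0174 in DESeq2). NPC1, which exports cholesterol from the lysosome, was lower, at 520.9 ± 16.5 and 455.8 ± 12.3 CPM (log2 fold change -0.19; adjusted p = 0.152 in edgeR and 0.0062 in DESeq2). The groups did not overlap for any of these 3 genes, a separation shown by 1.58% of all genes tested in the higher and 0.912% in the lower direction.

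The engulfment machinery list had 21 genes tested, 7 with a higher and 14 with a lower mean (median log2 fold change -0.022). Its MYO1E, a membrane-binding myosin, passed in DESeq2 at 55.3 ± 4.01 CPM in AppHu and 73.4 ± 9.41 CPM in AppSAA (log2 fold change 0.41; adjusted p = 0.108 in edgeR and 0.0105 in DESeq2). The lipid exporter ABCA1 had a log2 fold change of -0.25 and the GTPase RAC2 of 0.18, without passing in either tool. Of 21 genes of phosphatidylserine and apoptotic cell recognition, 9 had a higher and 12 a lower mean and none passed in either tool. The 3 with the smallest p were C1QA, a chain of complement C1q (log2 fold change -0.17), CD300A, an inhibitory receptor for phosphatidylserine (-0.20), and CALR, calreticulin (0.14).

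In the list of the TAM system beside the 10 genes, 11 were tested, 4 with a higher and 7 with a lower mean, and none reached an unadjusted p of 0.05 in edgeR or passed in DESeq2 (median log2 fold change -0.0078). ADAM10, a protease that sheds receptors from the surface, was at 852.7 ± 50.2 and 823.5 ± 43.3 CPM. LGALS3, which can act as a MERTK ligand, had a log2 fold change of 0.53 (SE 0.37). Of 15 CD14 and Toll-like receptor partners 6 had a higher and 9 a lower mean, and none passed in either tool. TLR4, the receptor that CD14 serves, was at 1208 ± 101 and 1093 ± 102 CPM (log2 fold change -0.14; adjusted p = 0.586 in edgeR), TLR1 had a log2 fold change of -0.18, and the kinase IRAK4 of 0.23 without overlap of the groups. Of 16 nuclear receptors and MAF factors 10 had a higher and 6 a lower mean (median 0.044), again with none past the threshold. The lipid-sensing receptor PPARG had a log2 fold change of 0.46 (SE 0.17), PPARA of -0.30 (SE 0.14) and the immediate early receptor NR4A1 of 0.83 (SE 0.29).

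**Figure D5:**
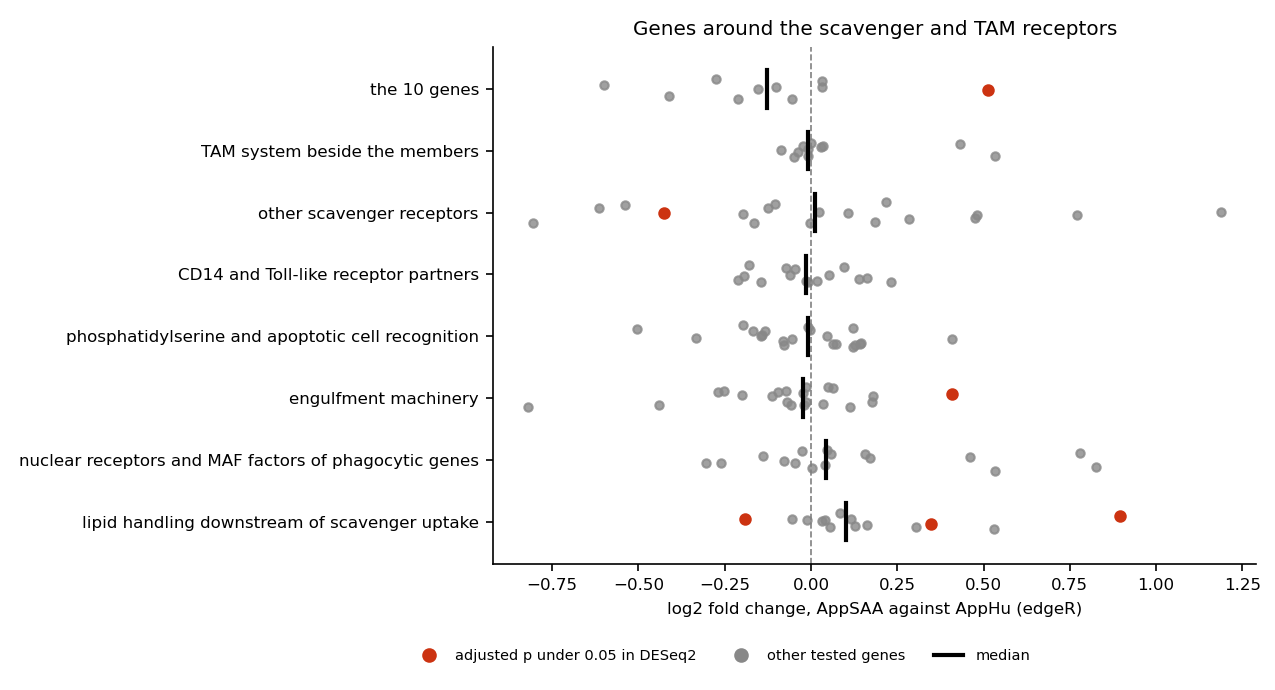
Log2 fold change of AppSAA against AppHu in edgeR (horizontal axis) for the 10 genes and for the tested genes of each list, 1 point per gene, with the list's median as a black line and genes past an adjusted p of 0.05 in DESeq2 in red. The list medians lie between -0.022 and 0.10, that of the 10 genes at -0.13, and the red points are OLR1, MRC1, MYO1E, FABP5, APOE and NPC1.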

How the data were processed

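Human microglia were sorted from 5 AppHu and 5 AppSAA mice. The authors made full-length cDNA (SMART-Seq HT PLUS), aligned single reads with STAR 2.7.11a to a combined mm10 and GRCh38 database, checked them with FastQC 0.11.9 and counted them with featureCounts 2.0.1. The values deposited are raw read counts, neither normalized nor filtered. The annotation release and strand setting are not given in the sources used here.

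Groups follow the sample labels. Human genes that reached 10 counts in 6 or more of the 10 libraries were tested with edgeR 4.0.16 (TMM, quasi-likelihood, R 4.3.3), without covariates, and called at a Benjamini-Hochberg adjusted p under 0.05. DESeq2 1.42.0 and limma 3.58.1 (voom) were alternatives, as were other factors, filters, covariates, a replicate block and each library left out; DESeq2 with each library left out was added after the data had been seen. DESeq2 gave no adjusted p for 1204 genes. Standard errors and intervals were derived from edgeR's F statistic. Permutation tests of genes between the groups were exact, two-sided, on log2 CPM (prior count 2). Those of the pairs used 100000 random permutations within groups. Libraries of a group differed by more than counting noise (chi-square per degree of freedom 12.2 to 79.4 over 20 pairs of libraries). The fits were also run on simulated data with 200 changed genes. The changes set there were larger than the log2 fold change of any of the 10 genes, so these runs do not bear on differences of this size.

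The 10 genes and the lists were chosen with earlier results of these data known. Besides the 10 genes, the text names, for each list, the genes called in edgeR or DESeq2 and the 3 with the smallest p, the markers that bear on identity, and the 3 genes most like each of MERTK, OLR1 and AXL. A gene that this rule names is not reported here. TMEM52B, GAS6-AS1 and SLC1A3 were named after their values were seen. Of the fixed marker lists, those for neutrophils, lymphocytes, mast cells, oligodendrocytes, neurons and vessels summed to 1000 to 1120, 1.94 to 4.72, 0 to 0.0759, 36.8 to 77.9, 0.561 to 2.26 and 105 to 162 CPM over all libraries. The genes of these lists above 10 CPM in every library were CSF3R, FCGR3B and CXCR2 (neutrophils), MBP (oligodendrocytes) and PECAM1 (vessels). MPO of the neutrophil list, MOG of the oligodendrocyte list, and CLDN5 and CDH5 of the vessel list had no count in any library. Positions and exon lengths are from GENCODE 44, matched by symbol, and upstream sequences from RefSeq.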

Additional observations from a re-analysis of the deposited data

How the results depend on the processing

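OLR1 was higher in AppSAA under all 29 alternatives (log2 fold change 0.43 to 0.56) and past the adjusted threshold in 14 of them: 0.51 in DESeq2, 0.49 in limma-voom (adjusted p = 0.0298), 0.50 without a filter (0.0374 in edgeR), 0.47 with the replicate block, and 0.43 to 0.55 in DESeq2 with each mouse left out (adjusted p = 0.00024 to 0.0081). In edgeR with each mouse left out, its adjusted p was 0.0682 to 0.176, and with the library total or the mouse share as a covariate 0.220 and 0.227. Accordingly 1 of the 10 genes was called in DESeq2 (also in each of its fits without a mouse), limma-voom, no filter and the replicate block, and 0 in the others. Over all genes, 12 were called in edgeR, 215 in DESeq2 (129 to 325 with a mouse left out), 52 in limma-voom, 32 without a filter, 1 with the library total, 5 with the mouse share and 2 to 34 with a mouse left out (34 without AppSAA replicate 5). The cause was not tested.

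The labels do not say whether the replicate numbers pair the mice, and the values do not settle it. Same-numbered mice had correlations of deviations of 0.0608 (mouse 4), 0.0315 (6), 0.182 (7) and 0.111 (8). Mice 4, 7 and 8 were closest to their own number, and mouse 6 was not. Number 3 occurs in AppHu only and number 5 in AppSAA only. With the replicate block these mice therefore do not inform the difference between the groups. In edgeR with this block 59 genes were called, against 12 without it, and the adjusted p of OLR1 was 0.0473. The lists held 1 called gene with the block and 0 in the main edgeR fit.

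Unadjusted p stayed under 0.05 in 11 of 19 alternatives for MERTK, 15 for AXL, 14 for CD36 and 7 for CD14, each with a lower mean throughout. Signs of uncalled genes changed in 8 (GAS6), 7 (PROS1), 7 (SCARB1) and 1 (MARCO) of 29. The exact permutation test passed 0.05 for 3 genes, and 1 to 3 with a mouse left out (1 without AppHu replicate 3 or 6 or AppSAA replicate 4 or 7). These p-values are unadjusted and the test was applied to the 10 genes only. The share of all genes that would pass is thus not known, and the counts are a description. Groups did not overlap for 1 to 2 genes, 2 without AppSAA replicate 5, where CD36 loses its only overlapping mouse. With all 10 mice, 1.58% of genes tested separated in the higher and 0.912% in the lower direction. The share with a mouse left out is not given, so these counts are a description. Pairs past the adjusted threshold numbered 0 to 2 (1 without AppHu replicate 4 or AppSAA replicate 8, 2 without AppHu replicate 8). With the longest transcript as length, 7 of 10 ranks of level were kept. MARCO rests on 14 to 81 counts per library.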
